A study of Dipsacus asperoides with 9 samples.

Results

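The unigenes described here are the suberin, Casparian strip and lipid-transfer genes of Dipsacus asperoides roots, 88 of the 65535 unigenes in the deposited table. That table held part of the assembled unigenes, and those outside it were not analysed here. The members were chosen by words in the description of the best match in the NR protein database, where one was given (34274 unigenes), and by a minimum level. The words were lipid-transfer (written with a hyphen), GDSL, omega-hydroxylase, 3-ketoacyl-CoA synthase, fatty acyl-CoA reductase, glycerol-3-phosphate acyltransferase, casparian and CASP-like. They matched 136 descriptions, of which 0 held the word omega-hydroxylase. Matches whose species was Beta, Chenopodium, Spinacia, Quercus suber or Hordeum (26) were left out, and 22 of the other 110 had fewer than 3 libraries at 1 FPKM or more. FPKM is a read count scaled by transcript length and sequencing depth. The 88 members fell into 6 Casparian strip membrane proteins (CASP), 14 CASP-like proteins, 7 glycerol-3-phosphate acyltransferases (GPAT), 2 GPATs of the plastid or of type GPAT9, 1 fatty acyl-CoA reductase (FAR), 7 3-ketoacyl-CoA synthases (KCS), 4 acyltransferases acting on 1-acylglycerol phosphate (LPAT), 40 GDSL esterase/lipases, 5 lipid-transfer proteins (LTP) and 2 named DIR1. Of the 66 members named, 29 fall outside the rule for named genes and were chosen after their values were seen. A description names the closest protein found in another species, here in 31 species, so a family name is a match and not a tested function.

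Suberin is a polyester of long fatty acids, fatty alcohols, glycerol and ferulic acid that is laid down in the walls of the endodermis and of the cork around older roots, where it limits the passage of water and solutes. The Casparian strip is a ring of lignin in the endodermal wall, placed by CASP proteins that mark the membrane under it. For suberin, KCS enzymes lengthen acyl chains, FAR enzymes reduce them to fatty alcohols, cytochromes P450 add a hydroxyl group at the chain end, and GPAT enzymes join the chains to glycerol. Lipid-transfer proteins are small secreted proteins that bind lipids, and some GDSL enzymes build or cleave the polyesters outside the cell.

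The series measured RNA of whole wild-type roots with 3 biological replicates at each of 3 stages: seedlings with 1 leaf (L1), seedlings with 2 leaves (L2) and plants grown for 7 months (M7). No treatment or transgene was part of the design. In whole roots, a change in the share of a cell type and a change in RNA per cell cannot be told apart. The labels give no further detail on the plants pooled per library.

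The L1 libraries had 26048 to 28468 unigenes at 1 FPKM or more, the L2 libraries 32849 to 34173 and the M7 libraries 13430 to 18794. Replicate 1 of M7 and replicate 3 of L1 stood apart from the others of their stage. The 100 most abundant unigenes held 48.1% of the summed FPKM in replicate 1 of M7, against 35.4% and 34.9% in the other M7 libraries, and 34.2% in replicate 3 of L1, against 25.3% and 26.5% in the other L1 libraries. Replicate 3 of L1 was the lowest of its stage for 51 of the 88 members (58%), against 42.8% of all tested unigenes. For the photosynthesis genes used as leaf or shoot markers, L1 libraries summed to 116 to 146 FPKM, L2 libraries to 49.8 to 58.7 FPKM and M7 libraries to 1263 to 3036 FPKM. A single chlorophyll a-b binding unigene (TRINITY_DN22710_c0_g1) made up most of the M7 sum, with 2913, 1196 and 2148 FPKM. The other 18 marker unigenes summed to 66.1 to 237 FPKM in M7, against 104 to 134 FPKM in L1 and 32.3 to 37.7 FPKM in L2. Of the 19 marker unigenes, 4 were higher and 10 lower in M7 against L1, and 8 were higher and 4 lower against L2. Of all tested unigenes, 9.37% were higher and 35.1% lower against L1, and 7.71% and 52.6% against L2. The part of shoot RNA in the M7 results was not tested.

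The 88 members split between higher and lower in L2 against L1, and more of them were lower than higher in M7. A member was called changed at a limma p under 0.05 after Benjamini-Hochberg adjustment over the 34925 unigenes tested, and log2 changes of FPKM + 1 are given ± standard error. In L2 against L1, 13 members rose (14.8% of 88, against 26.1% of all tested unigenes) and 13 fell (14.8%, against 14.8% of all tested). In M7 against L1, 15 rose (17%, against 9.37%) and 37 fell (42.0%, against 35.1%). In M7 against L2, 11 rose (12.5%, against 7.71%) and 42 fell (47.7%, against 52.6%). The median log2 fold change of the members was 0.13 for L2 over L1, -0.81 for M7 over L1 and -0.85 for M7 over L2, beside 0.32, -0.48 and -1.07 for all tested unigenes. In M7, 14 members were listed at 0 in every library and 1 was so in L2. For such members, the fitted change depends on the 1 FPKM added before the logarithm, so no fold is given. Without the 15, the members' medians were 0.20, -0.70 and -0.46.

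By the thresholds of the study for differentially expressed genes (DEGs), an adjusted p under 0.05, a log2 fold change over 2 in size and a highest stage mean over 30 FPKM, few members passed. They numbered 1 higher (1.14%, against 0.868% of all tested unigenes) and 0 lower (against 0.372%) in L2 against L1. They numbered 2 higher (2.27%, against 1.41%) and 6 lower (6.82%, against 3.73%) in M7 against L1, and 1 higher (1.14%, against 1.01%) and 6 lower (6.82%, against 4.14%) in M7 against L2. Of the members, 19 had a stage mean over 30 FPKM, 3 had one over 100 FPKM, and 32 stayed under 5 FPKM at every stage.

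**Figure D1:**
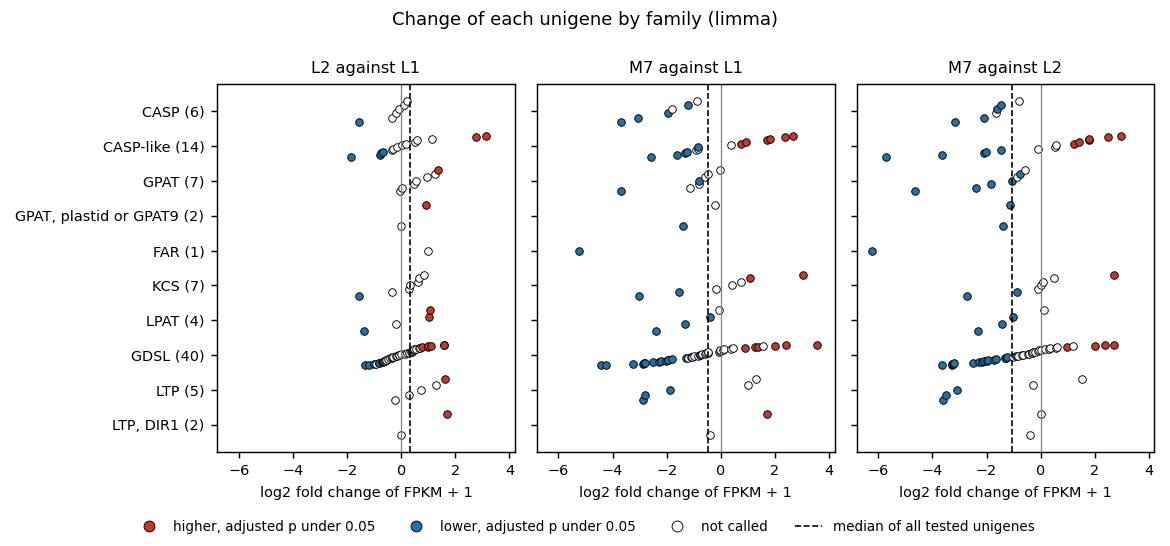
Log2 fold change of FPKM + 1 (horizontal axis) of each of the 88 members, by family (vertical axis, number of members in brackets), for L2 against L1, M7 against L1 and M7 against L2. Each point is a unigene, red where higher and blue where lower with an adjusted p under 0.05 from limma, and the dashed line is the median of all tested unigenes (0.32, -0.48 and -1.07). In M7, the CASP and GPAT points lie below 0, while the CASP-like, KCS and GDSL points reach both sides.

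Against both seedling stages, 11 members rose in M7 (6 CASP-like, 4 GDSL and 1 KCS) and 29 fell (4 CASP, 3 CASP-like, 1 FAR, 2 GPAT, 1 plastid GPAT, 1 KCS, 3 LPAT, 11 GDSL and 3 LTP). Both comparisons use the M7 libraries, so these are not separate observations. The share of all tested unigenes called against both stages was not computed. Against L1 alone, 9.37% of all tested unigenes rose and 35.1% fell, and against L2 alone, 7.71% and 52.6%. The counts against both stages are thus given without a reading against the whole table. The counts depended on how libraries were scaled. All 11 risers were also called higher against both stages after median ratio rescaling, after quantile normalization, and without both libraries that stood apart. Of the 29 fallers, 25, 16 and 28 were called lower against both under these settings, and 16 were under all of them. Both scalings raised M7 against the seedlings. The median of all tested unigenes for M7 over L2 went from -1.07 to -0.70 after median ratio rescaling and 0.05 after quantile normalization. They thus favour rises over falls in M7, so these counts do not show that the rises are firmer than the falls. Among the members called, the share that rose was 50% for L2 over L1, 28.8% for M7 over L1 and 20.8% for M7 over L2, beside 63.8%, 21.1% and 12.8% of all called unigenes. Median ratio rescaling gave shares of 42.1%, 38.0% and 37.3%, beside 59.4%, 30.2% and 23.96% of all called. Quantile normalization gave 28.6%, 55.1% and 57.7%, beside 50.8%, 46.96% and 46.4%. In every M7 library, 17 members (19.3%) were under 0.1 FPKM, as were 36.1% of all tested unigenes and 19.9% of those with a description and a kept species. No direct comparison of these shares was tested.

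CASP proteins, the scaffold of the Casparian strip, were expressed in both seedling stages and close to absent in M7. Their summed level was 38.7, 32.5 and 22.2 FPKM in L1, 20.2, 21.6 and 25.01 FPKM in L2, and 0.7, 1.19 and 0.68 FPKM in M7. All 6 were lower in M7 by their means, and 4 passed the test against L1 and 4 against L2. Of all tested unigenes, 35.1% and 52.6% fell in these comparisons. After median ratio rescaling, 5 and 4 of the CASPs were called lower, and after quantile normalization 3 and 2. Some of the 6, the unigene named CASP1 among them, were joined by the assembler and may be alleles, copies or pieces of a gene. Their falls may thus not be separate observations. The unigene named CASP1 (TRINITY_DN13496_c0_g3) had 13.6, 11.7 and 10.2 FPKM in the L1 libraries, 3.06, 2.94 and 3.93 FPKM in the L2 libraries and 0, 0 and 0 FPKM in the M7 libraries. It was the only CASP to change between the seedling stages, and its libraries did not overlap between any pair of stages. It fell in L2 against L1 (log2 change -1.57 ± 0.19, limma adjusted p = 0.000201) and in M7 against L1 (limma adjusted p = 5.2e-06) and L2 (limma adjusted p = 2.83e-05), with M7 listed at 0.

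CASP2 (TRINITY_DN18001_c0_g1), at 0 to 5.09 FPKM in the seedling libraries, was listed at 0 in every M7 library and passed no test. The median log2 fold change of the family was -1.89 for M7 over L1 and -1.64 for M7 over L2, or -1.13 and -0.56 after quantile normalization, so its sign did not turn with the scaling. Of the 6, 3 were under 0.1 FPKM in every M7 library, and CASP2 is among the middle members that set the medians of -1.89 and -1.64. The size of these medians thus depends on the 1 FPKM added before the logarithm.

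CASP-like proteins belong to the same family of membrane proteins as CASPs but are found in many tissues, and in M7 they moved both ways. Of the 14, 6 rose and 5 fell in M7 against L1, and as many did so against L2. Of all tested unigenes, 9.37% rose and 35.1% fell against L1, and 7.71% and 52.6% against L2. CASP-like protein 4D1 (TRINITY_DN12070_c0_g2) had the largest change of the members between the seedling stages, with 21.6, 13.6 and 13.6 FPKM in the L1 libraries, 145, 143 and 153 FPKM in the L2 libraries and 2.86, 0.81 and 2.15 FPKM in the M7 libraries. Its L2 libraries were all far above both other stages. It rose in L2 against L1 (log2 change 3.13 ± 0.32, limma adjusted p = 6.08e-05), the sole member DEG of that comparison, and fell in M7 against L1 (log2 change -2.59 ± 0.32, limma adjusted p = 0.000243) and L2 (log2 change -5.72 ± 0.32, limma adjusted p = 1.65e-06). A unigene described only as CASP-like protein (TRINITY_DN21344_c0_g1) had the same order of stages, with 2.76, 1.84 and 0.36 FPKM in L1, 16.9, 15.98 and 14.4 FPKM in L2 and 0, 0.64 and 0.48 FPKM in M7. It rose in L2 against L1 (log2 change 2.78, adjusted p = 0.000417) and was lower in M7 against L2 (log2 change -3.64, adjusted p = 6.49e-05), while M7 and L1 overlapped (adjusted p = 0.106).

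A second 4D1 unigene (TRINITY_DN10656_c0_g4) of another component ran the other way, with 2.05, 2.10 and 0.95 FPKM in L1, 1.65, 0.56 and 1.40 FPKM in L2 and 12.3, 22.2 and 13.98 FPKM in M7. A component is a group of contigs that the assembler joined, which may hold alleles, copies or pieces of a gene, and reads of near-identical copies can be divided among its unigenes. It rose in M7 against L1 (log2 change 2.66 ± 0.33, limma adjusted p = 0.000252) and L2 (log2 change 2.96 ± 0.33, limma adjusted p = 8.81e-05). The unigenes that share the name 4D1 were highest at different stages. CASP-like protein 1E2 (TRINITY_DN17482_c0_g1) was the most abundant of the family in M7, with 23.4, 24.5 and 5.79 FPKM in the L1 libraries, 23.01, 21.1 and 25.6 FPKM in the L2 libraries and 54.7, 142 and 72.7 FPKM in the M7 libraries. All M7 libraries lay above the seedling ones, with replicate 2 the highest, and the rise was a DEG against L1 (log2 change 2.37 ± 0.55, limma adjusted p = 0.00765) but not against L2 (log2 change 1.79 ± 0.55, limma adjusted p = 0.021). The call against L2 was lost without any replicate of L2 or replicate 2 of M7 (adjusted p up to 0.0664).

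Other CASP-like unigenes also rose in M7. CASP-like protein 5A2 (TRINITY_DN27196_c0_g3) had 16.96, 17.97 and 19.9 FPKM in L1, 13.5, 13.8 and 15.8 FPKM in L2 and 45.2, 31.9 and 30.5 FPKM in M7 (log2 change 0.92, adjusted p = 0.00758, against L1). The CASP-like protein TRINITY_DN21504_c0_g3 had 21.6, 23.3 and 28.9 FPKM in L1, 15.3, 14.6 and 15.3 FPKM in L2 and 36.3, 39.9 and 49.9 FPKM in M7 and differed between all stages (log2 change 1.41, adjusted p = 0.00043, M7 against L2). Its fall in L2 against L1 (adjusted p = 0.0301) was lost without replicate 2 or 3 of L1 or any replicate of L2 (adjusted p up to 0.0755), and its rise in M7 against L1 (adjusted p = 0.0166) without replicate 1 or 2 of L1 or replicate 3 of M7 (adjusted p up to 0.0605). A unigene of the same component, named CASP-like protein 4A1 (TRINITY_DN21504_c0_g1), was highest in L2, with 4.40, 4.54 and 1.41 FPKM in L1, 8.06, 8.01 and 8.09 FPKM in L2 and 0, 2.21 and 2.42 FPKM in M7. It fell in M7 against L2 (log2 change -2.03, adjusted p = 0.00918). CASP-like protein 5C1 held a like pair in a single component. TRINITY_DN383_c0_g1 had 3.95, 2.95 and 2.76 FPKM in L1, 1.15, 2.27 and 1.16 FPKM in L2 and 11.9, 12.9 and 13.4 FPKM in M7 and rose in M7 against L1 (log2 change 1.71, adjusted p = 0.000455), while TRINITY_DN383_c0_g2 had 4.64, 4.47 and 5.72 FPKM in L1, 2.32, 1.91 and 3.31 FPKM in L2 and 2.50, 2.72 and 1.69 FPKM in M7 and fell against L1 (log2 change -0.86, adjusted p = 0.0167). The fall was lost without replicate 3 of M7 (adjusted p up to 0.056), and it turned to a rise after quantile normalization (log2 fold change 0.16).

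Both 5C1 unigenes were lower in L2 against L1, with adjusted p of 0.0307 for TRINITY_DN383_c0_g1 and 0.0281 for TRINITY_DN383_c0_g2. The first call was lost without replicate 1 or 2 of L1 or replicate 1 or 3 of L2 (adjusted p up to 0.104), and the second without replicate 3 of L1 or replicate 1 or 2 of L2 (adjusted p up to 0.103). CASP-like proteins 2D1 and 4B1 fell in M7 against both seedling stages. CASP-like protein 2D1 (TRINITY_DN21302_c0_g1) had 15.98, 14.9 and 9.98 FPKM in L1, 19.9, 18.4 and 19.6 FPKM in L2 and 3.76, 4.78 and 2.82 FPKM in M7, with no overlap between M7 and the seedlings (log2 change -2.11, adjusted p = 0.000123, M7 against L2). CASP-like protein 4B1 (TRINITY_DN22002_c0_g2) had 32.1, 25.6 and 11.2 FPKM in L1, 25.5, 23.8 and 23.6 FPKM in L2 and 6.99, 8.22 and 9.43 FPKM in M7 (log2 change -1.46, adjusted p = 0.0072, M7 against L2). Against L1 the 4B1 call (adjusted p = 0.0188) was lost without replicate 1 or 2 of L1 (adjusted p up to 0.0697). After either other scaling, 4B1 lost both calls (adjusted p up to 0.202 against L1 and 0.176 against L2), and 2D1 lost its call against L1 after quantile normalization (adjusted p up to 0.0557). Of the remaining 3, CASP-like 2C1 (TRINITY_DN106054_c0_g1) was at 0 to 0.21 FPKM in the seedlings and rose in M7 to 5.90, 2.23 and 1.66 FPKM (adjusted p = 0.00214, against L1). CASP-like 1E1 (TRINITY_DN120481_c0_g1) had 3.13, 4.37 and 1.49 FPKM in L1, 0.15, 0 and 0 FPKM in L2 and 1.90, 0.19 and 0 FPKM in M7 and fell in L2 against L1 (adjusted p = 0.00726). Its fall in M7 against L1 (adjusted p = 0.0322) was lost without replicate 1 or 2 of L1, any replicate of L2 or replicate 2 or 3 of M7 (adjusted p up to 0.108). A second 5A2 unigene (TRINITY_DN36752_c0_g3), at 4.41 to 10.7 FPKM, passed no test. In M7 against L1 the median of the CASP-like family was -0.23, and it turned to 0.31 and 0.65 under the other scalings. Against L2 it was 0.54, with 1.09 and 1.56 under them. Of the 14, 6 were called higher and 5 lower in M7 against L1, and median ratio rescaling left 6 and 2, quantile normalization 7 and 1. Against L2, 6 were higher and 5 lower, with 7 and 4 and then 8 and 3 under the same scalings.

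**Figure D2:**
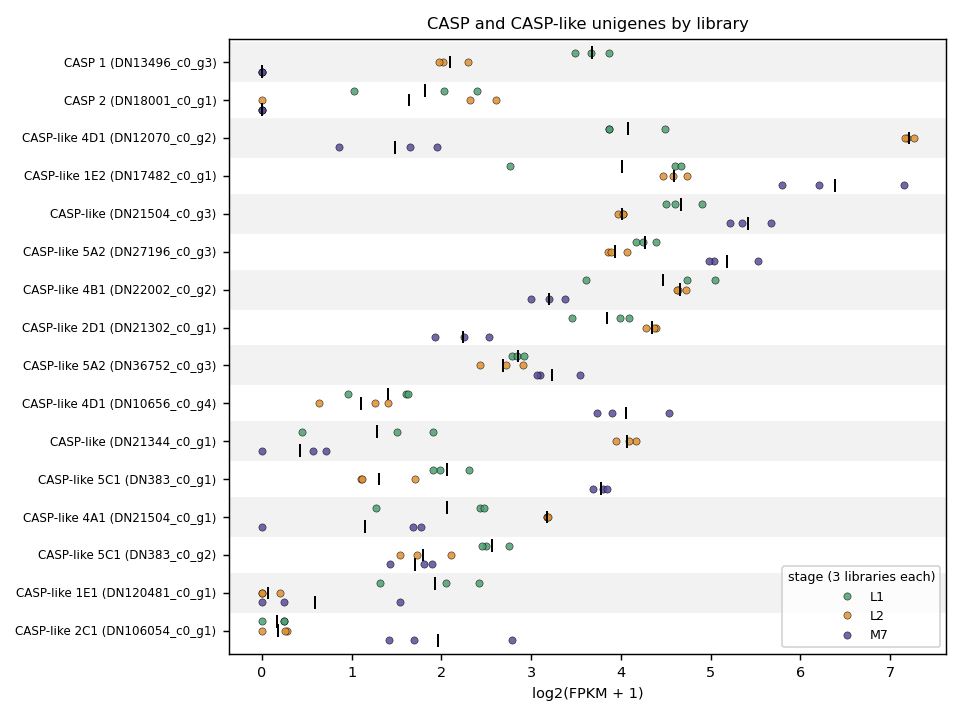
Level of CASP1, CASP2 and the 14 CASP-like unigenes in each library (horizontal axis, log2 of FPKM + 1), with 1 row per unigene. Points are the 3 libraries of L1, L2 and M7, from top to bottom in each row, and short vertical lines are their means. The M7 points of the CASP1 and CASP2 rows lie at 0, and those of 7 CASP-like rows lie right of the seedling points, 6 of them called higher against both stages.

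The alcohol-forming fatty acyl-CoA reductase (TRINITY_DN113681_c0_g1), which makes the fatty alcohols of suberin and wax, had the largest fall in M7 of all members with values above 0. It had 70.1, 63.6 and 22.5 FPKM in the L1 libraries, 93.7, 93.8 and 92.9 FPKM in the L2 libraries and 0.06, 0.29 and 0.51 FPKM in the M7 libraries. The L2 libraries were nearly equal, while replicate 3 of L1 lay well under the other L1 libraries. It fell in M7 against L1 (log2 change -5.22 ± 0.41, limma adjusted p = 2.54e-05) and L2 (log2 change -6.21 ± 0.41, limma adjusted p = 3.83e-06), a DEG in both. L2 was not called higher than L1 (log2 change 0.99, adjusted p = 0.0885), but was so without both libraries that stood apart (log2 change 0.48).

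GPATs of the land-plant type join acyl chains to glycerol for cutin and suberin. Their summed level was 95.4, 91.1 and 59.9 FPKM in L1, 108, 108 and 101.81 FPKM in L2, and 29.5, 37.8 and 64.6 FPKM in M7. No member rose in M7, 2 of 7 fell against L1 and 5 fell against L2, beside falls in 35.1% and 52.6% of all tested unigenes. GPAT6 (TRINITY_DN25811_c0_g1), known from cutin of Arabidopsis flowers, had 18.5, 16.7 and 5.12 FPKM in the L1 libraries, 24.7, 25.9 and 20.9 FPKM in the L2 libraries and 0, 0 and 0 FPKM in the M7 libraries. A fall in M7 was called against L1 (limma adjusted p = 0.000158) and L2 (limma adjusted p = 2.47e-05). GPAT5, which makes root and seed coat suberin in Arabidopsis, matched 3 unigenes, all higher in L2 by their means and lower in M7. The GPAT5-like unigene TRINITY_DN19365_c1_g1 had 8.09, 5.05 and 1.21 FPKM in L1, 10.6, 10.7 and 10.6 FPKM in L2 and 1.56, 0.8 and 1.47 FPKM in M7 and fell in M7 against L2 (log2 change -2.37 ± 0.47, limma adjusted p = 0.00256). Against L1 it was not called (adjusted p = 0.0841), and replicate 3 of L1 was at the M7 level. The GPAT5-like TRINITY_DN20882_c0_g2 had 0.2, 0.6 and 0.39 FPKM in L1, 3.01, 4.36 and 1.06 FPKM in L2 and 0, 0 and 0 FPKM in M7, and rose in L2 against L1 (log2 change 1.35, adjusted p = 0.00855). GPAT5 TRINITY_DN19365_c0_g1, at 0 to 1.91 FPKM, fell in M7 against L2 (adjusted p = 0.0132). All falls of the GPAT5 unigenes against L2 were lost after quantile normalization.

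A pair of unigenes named GPAT8, a cutin enzyme of Arabidopsis, passed no test. TRINITY_DN31704_c0_g1 had 22.9, 23.7 and 8.50 FPKM in L1, 16.1, 17.9 and 17.6 FPKM in L2 and 5.41, 5.42 and 23.5 FPKM in M7, so replicate 3 of M7 was as high as the seedlings and the other M7 libraries were not. TRINITY_DN2502_c0_g1 had 12.8, 12.9 and 14.8 FPKM in L1, 19.9, 17.1 and 23.2 FPKM in L2 and 10.4, 12.1 and 17.4 FPKM in M7. The most abundant GPAT, named GPAT 3-like (TRINITY_DN14465_c0_g2), had 31.4, 31.8 and 29.6 FPKM in L1, 32.5, 31.6 and 26.5 FPKM in L2 and 12.1, 19.3 and 22.1 FPKM in M7. Its fall in M7 was called against L1 (adjusted p = 0.0273) and L2 (adjusted p = 0.0253). The first call was lost without replicate 1 or 2 of L1 (adjusted p up to 0.0805), the second without replicate 1 or 2 of L2 (adjusted p up to 0.0744), and both after either other scaling. The plastid GPAT (TRINITY_DN24451_c0_g1), which supplies membrane lipids of the chloroplast and not suberin, fell as well, with 16.8, 21.02 and 21.8 FPKM in L1, 19.6, 19.7 and 20.2 FPKM in L2 and 4.91, 6.46 and 10.2 FPKM in M7 (log2 change -1.40, adjusted p = 0.00184, M7 against L2). Its call against L2 was lost after either other scaling (adjusted p up to 0.119). GPAT9 (TRINITY_DN14465_c0_g3), of membrane and storage lipid synthesis in Arabidopsis, stayed under 2 FPKM and was highest in L2 (log2 change 0.91, adjusted p = 0.00103, against L1).

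Among the KCS enzymes, which set the length of acyl chains, the dominant member differed between stages. KCS4 (TRINITY_DN3739_c0_g2) had 15.4, 15.6 and 10.2 FPKM in the L1 libraries, 17.1, 16.2 and 17.2 FPKM in the L2 libraries and 128, 94.7 and 131 FPKM in the M7 libraries. It rose in M7 against L1 (log2 change 3.02 ± 0.23, limma adjusted p = 2.3e-05) and L2 (log2 change 2.72 ± 0.23, limma adjusted p = 1.72e-05), and was the sole member DEG higher in M7 against both. KCS1 (TRINITY_DN1809_c0_g1) had 29.1, 31.6 and 29.6 FPKM in the L1 libraries, 22.9, 26.3 and 22.3 FPKM in the L2 libraries and 1.42, 4.04 and 3.49 FPKM in the M7 libraries. Its level dropped in M7 against L1 (log2 change -3.03 ± 0.29, limma adjusted p = 6.47e-05) and L2 (log2 change -2.71 ± 0.29, limma adjusted p = 6.84e-05), a DEG in both with a highest stage mean of 30.1 FPKM, just over the threshold. KCS11 (TRINITY_DN1724_c0_g1), also abundant, had 36.4, 35.5 and 21.8 FPKM in L1, 42.6, 37.7 and 35.6 FPKM in L2 and 20.4, 61.2 and 53.4 FPKM in M7. It was not called in any comparison (adjusted p = 0.5, M7 against L1), and replicate 1 of M7 lay under the other M7 libraries. The summed level of the 7 KCS was 88.5, 87.3 and 64.5 FPKM in L1, 89.9, 85.8 and 82.4 FPKM in L2, and 159, 166 and 193 FPKM in M7.

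The other 4 KCS unigenes stayed under 6 FPKM. The very-long-chain KCS TRINITY_DN11114_c0_g1 rose in M7 against L1 (log2 change 1.09, adjusted p = 0.0127), with 2.05, 1.03 and 1.02 FPKM in L1, 3.16, 2.09 and 2.42 FPKM in L2 and 2.65, 4.32 and 5.15 FPKM in M7. KCS10-like (TRINITY_DN113386_c0_g1), named after an enzyme of the Arabidopsis cuticle, was at 2.93, 2.10 and 1.07 FPKM in L1, listed at 0 in L2, and at 0.03 FPKM or less in M7. It fell in L2 (adjusted p = 0.000349) and in M7 (adjusted p = 0.000425), both against L1. KCS6 (TRINITY_DN106291_c0_g1), a wax enzyme of Arabidopsis, had 1.47, 1.01 and 0.87 FPKM in L1, 1.97, 2.72 and 2.43 FPKM in L2 and 1.35, 1.33 and 0.12 FPKM in M7. Its fall in M7 against L2 (adjusted p = 0.0361) was lost without replicate 2 of L1, any replicate of L2 or replicate 3 of M7 (adjusted p up to 0.105), and its sign turned after quantile normalization. The KCS TRINITY_DN26164_c0_g1 was not called, and M7 replicate 1 had 5.68 FPKM, against 0.83 and 0.23 FPKM in the other M7 libraries.

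LPATs, which matched the words only through their substrate and act in membrane and storage lipid synthesis, were low. The unigene TRINITY_DN1902_c0_g3 had 2.98 to 6.49 FPKM over all libraries and was not called. TRINITY_DN2159_c0_g2 had 5.04, 4.10 and 1.38 FPKM in L1, 8.02, 8.08 and 6.42 FPKM in L2 and 0.67, 0.91 and 0.49 FPKM in M7 and fell in M7 against L2 (log2 change -2.33, adjusted p = 0.000514). Its fall in M7 against L1 (adjusted p = 0.0143) was lost without replicate 2 of L1 (adjusted p up to 0.0525), and its rise in L2 against L1 (adjusted p = 0.046) without replicate 2 or 3 of L1, any replicate of L2 or any replicate of M7 (adjusted p up to 0.13). Low levels were also seen in the other pair. TRINITY_DN18147_c0_g1 and TRINITY_DN34893_c0_g1 were listed at 0 in every M7 library. In L2 against L1, the first was lower (log2 change -1.39, adjusted p = 0.00276) and the second higher (log2 change 1.06, adjusted p = 0.000108). The fall of the second in M7 against L1 (adjusted p = 0.0262) was lost without replicate 2 of L1 or any replicate of M7 (adjusted p up to 0.0844). After quantile normalization, none of the 4 was called lower in M7 against L2, and TRINITY_DN1902_c0_g3 was called higher.

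**Figure D3:**
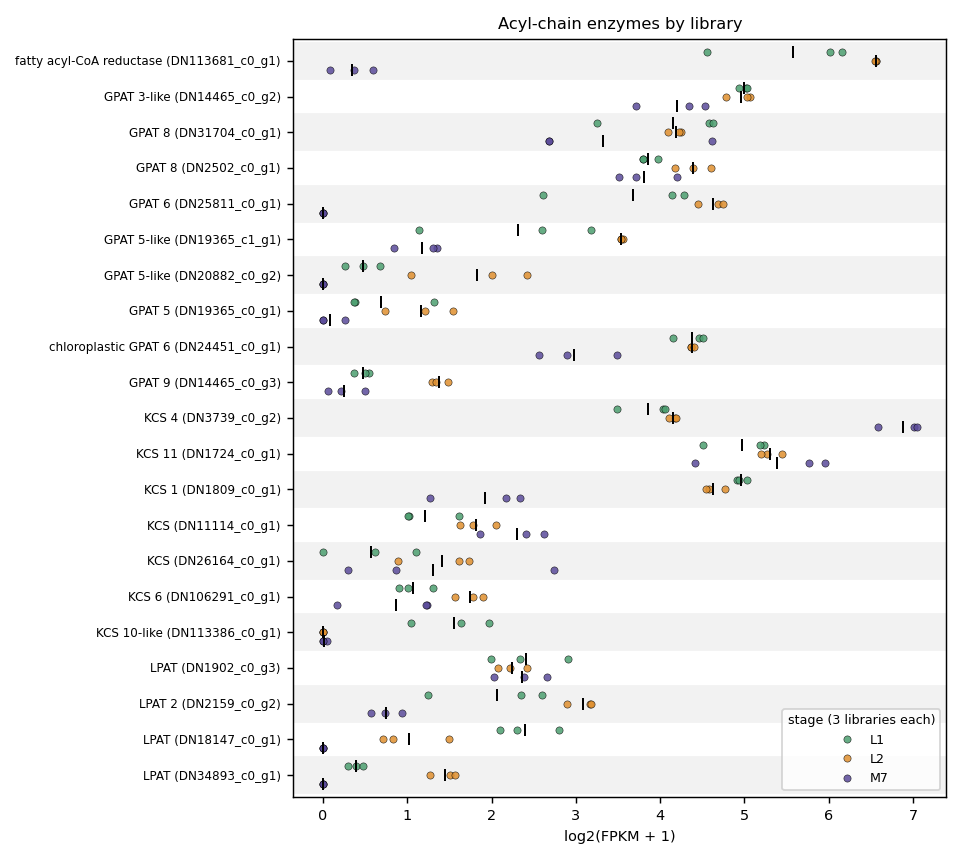
Level of the FAR, GPAT, KCS and LPAT unigenes in each library (horizontal axis, log2 of FPKM + 1), with 1 row per unigene. Points are the 3 libraries of L1, L2 and M7, from top to bottom in each row, and short vertical lines are their means. FAR and GPAT6 drop to the left edge in M7 (0 to 0.51 FPKM), while KCS4 moves to the right (94.7 to 131 FPKM).

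GDSL esterase/lipases, a large family named after a sequence motif around the active serine, made up 40 of the 88 members, and 29 of them were not called between the seedling stages. In L2 against L1, 5 rose and 6 fell, beside 26.1% and 14.8% of all tested unigenes. In M7 against L1, 6 rose and 16 fell, beside 9.37% and 35.1%. Against L2, 4 rose and 17 fell, beside 7.71% and 52.6%. The family median was -0.78 in M7 against L1 and -0.68 against L2, and it turned to 0.10 and 0.28 after quantile normalization. The risers and fallers then numbered 11 and 10 against L1 and 15 and 11 against L2, with 9 and 14 and with 11 and 16 after median ratio rescaling. Their summed level was 622, 567 and 470.5 FPKM in L1, 492, 494 and 491 FPKM in L2, and 279, 490.5 and 509.8 FPKM in M7, so only replicate 1 of M7 fell outside the seedling range.

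Names such as At1g74460 give the Arabidopsis locus of the match. This one had the largest fall in M7 against L1 among the GDSL members still above 0 in M7. At1g74460 (TRINITY_DN33819_c0_g1) had 41.6, 45.4 and 78.5 FPKM in the L1 libraries, 22.2, 23.3 and 22.7 FPKM in the L2 libraries and 0.56, 2.29 and 1.96 FPKM in the M7 libraries. The stages did not overlap, and it fell in M7 against L1 (log2 change -4.45 ± 0.35, limma adjusted p = 2.59e-05) and L2 (log2 change -3.26 ± 0.35, limma adjusted p = 7.12e-05). Its fall in L2 against L1 (log2 change -1.19, adjusted p = 0.0248) was lost without replicate 3 of L1 or any replicate of L2 (adjusted p up to 0.0733). The At5g55050-like unigene (TRINITY_DN37489_c0_g1) had 21.6, 20.1 and 12.8 FPKM in L1, 12.1, 10.8 and 11.97 FPKM in L2 and 0, 0 and 0 FPKM in M7 and fell in M7 against L1 (adjusted p = 5.71e-06) and L2 (adjusted p = 2.94e-06). The At2g23540 unigene TRINITY_DN14578_c0_g1 had 24.4, 19.9 and 8.56 FPKM in L1, 21.6, 22.7 and 23.6 FPKM in L2 and 1.33, 1.22 and 1.71 FPKM in M7 (log2 change -3.29, adjusted p = 6.94e-05, M7 against L2). A second At2g23540 unigene (TRINITY_DN15205_c0_g2) had 7.16, 7.83 and 9.93 FPKM in L1, 4.55, 4.29 and 4.02 FPKM in L2 and 0.42, 0.35 and 0.25 FPKM in M7 (log2 change -2.79, adjusted p = 1.44e-05, M7 against L1), chosen after its values were seen. Both fell in M7, and only the second was already lower in L2 against L1 (adjusted p = 0.00891).

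Further GDSL unigenes fell in M7, all but the first of these chosen after their values were seen. The At1g29670-like TRINITY_DN20072_c0_g2 had 9.15, 8.44 and 9.18 FPKM in L1, 11.9, 12.2 and 10.8 FPKM in L2 and 0, 0.79 and 0.41 FPKM in M7 (log2 change -3.21, adjusted p = 8.22e-06, M7 against L2). A second At1g29670-like (TRINITY_DN12144_c0_g1) had 15.3, 17.9 and 21.3 FPKM in L1, 18.1, 16.02 and 16.2 FPKM in L2 and 2.12, 5.84 and 2.30 FPKM in M7 (log2 change -2.10, adjusted p = 0.000574, M7 against L2). The GDSL unigene TRINITY_DN14842_c1_g1 had 36.6, 30.01 and 17.4 FPKM in L1, 33.6, 30.5 and 28.8 FPKM in L2 and 6.76, 3.42 and 4.38 FPKM in M7 and was a DEG against both stages (log2 change -2.49, adjusted p = 0.000222, M7 against L2). In these 3, every M7 library lay under every seedling library. The GDSL unigene TRINITY_DN12766_c0_g1 had 4.89 to 15.7 FPKM in the seedlings and was listed at 0 in M7 (adjusted p = 0.000112, M7 against L2). At5g03980 (TRINITY_DN114712_c0_g1), also at 0 in M7, had 0.51, 0.22 and 1.28 FPKM in L2, against 1.78, 3.17 and 4.88 FPKM in L1 (log2 change -1.34, adjusted p = 0.00808).

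At5g33370-like (TRINITY_DN17321_c0_g1), named after a cutin synthase of Arabidopsis, had the largest rise against L1 among the GDSL members, with 1.52, 1.24 and 0 FPKM in the L1 libraries, 4.10, 4.65 and 4.14 FPKM in the L2 libraries and 22.2, 14.8 and 24.4 FPKM in the M7 libraries. Its libraries did not overlap between stages. It rose in L2 against L1 (log2 change 1.57 ± 0.37, limma adjusted p = 0.00853), and M7 was higher against both L1 (log2 change 3.56 ± 0.37, limma adjusted p = 0.000101) and L2 (log2 change 1.99 ± 0.37, limma adjusted p = 0.00177). With a pseudocount of 0.1 FPKM, the calls of L2 against L1 (adjusted p up to 0.0534) and M7 against L2 (adjusted p up to 0.0848) were lost. The At4g10955-like unigene TRINITY_DN37685_c0_g1 had 1.77, 1.06 and 0.72 FPKM in L1, 0.61, 0.56 and 1.04 FPKM in L2 and 5.02, 11.9 and 17.1 FPKM in M7 (log2 change 2.70, adjusted p = 0.00052, M7 against L2). The At1g28580 unigene TRINITY_DN23841_c0_g1 had 1.86, 1.42 and 0.91 FPKM in L1, 1.02, 0.96 and 0.59 FPKM in L2 and 12.1, 4.82 and 10.2 FPKM in M7 (log2 change 2.36, adjusted p = 0.00036, M7 against L2). The At3g48460-like unigene TRINITY_DN14503_c0_g1 had 2.52, 1.76 and 2.35 FPKM in L1, 4.18, 4.09 and 1.92 FPKM in L2 and 4.72, 10.4 and 7.60 FPKM in M7 (log2 change 1.37, adjusted p = 0.00955, M7 against L1). The last 2 were chosen after their values were seen, and the call of At3g48460-like against L2 (adjusted p = 0.0348) was lost without replicate 2 or 3 of L2 or replicate 2 or 3 of M7 (adjusted p up to 0.119).

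The name At1g28580-like was shared by abundant unigenes that did not move together. TRINITY_DN2503_c0_g2 had 95.2, 77.9 and 34.3 FPKM in the L1 libraries, 50.02, 49.3 and 50.6 FPKM in the L2 libraries and 4.38, 12.96 and 19.03 FPKM in the M7 libraries, and it was a DEG lower in M7 against L1 (log2 change -2.49 ± 0.53, limma adjusted p = 0.00491) and L2 (log2 change -2.15 ± 0.53, limma adjusted p = 0.00758). TRINITY_DN2503_c0_g1, of the same component, had 36.5, 30.3 and 17.3 FPKM in the L1 libraries, 47.6, 43.7 and 42.7 FPKM in the L2 libraries and 39.4, 73.9 and 99.4 FPKM in the M7 libraries. It was higher in M7 against L1 (log2 change 1.27 ± 0.38, limma adjusted p = 0.0255), a call that was lost without replicate 2 or 3 of L1 or replicate 2 or 3 of M7 (adjusted p up to 0.0818). Reads can be divided among near-identical unigenes of a component, so the opposite changes within DN2503 may not be separate. How reads were divided between them was not tested. TRINITY_DN10293_c0_g1 had 39.96, 29.9 and 6.05 FPKM in L1, 39.5, 41.8 and 37.9 FPKM in L2 and 51.2, 70.1 and 60.9 FPKM in M7 and was not called (log2 change 1.56, adjusted p = 0.0596, M7 against L1), and replicate 3 of L1 lay far under the others. The GDSL unigene with the highest M7 value outside this name, TRINITY_DN22390_c0_g1, had 77.6, 59.9 and 18.8 FPKM in L1, 25.3, 26.8 and 23.1 FPKM in L2 and 27.9, 79.2 and 86.8 FPKM in M7. It passed no test, and its L1 and M7 libraries varied several-fold within the stage. The At4g10955-like unigene TRINITY_DN32847_c0_g2 rose in L2 against L1 (log2 change 0.98, adjusted p = 0.0308), with 9.77, 8.84 and 4.28 FPKM in L1, 14.8, 14.7 and 16.3 FPKM in L2 and 11.3, 17.02 and 14.5 FPKM in M7. That call was lost without any replicate of L2 (adjusted p up to 0.0897), and the rise in M7 against L1 (adjusted p = 0.0451) without replicate 2 or 3 of L1, any replicate of L2 or replicate 2 or 3 of M7 (adjusted p up to 0.118).

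A few low unigenes marked L2. At5g45670 (TRINITY_DN21421_c0_g1) had 0.06, 0.07 and 0 FPKM in L1, 1.51, 2.42 and 2.50 FPKM in L2 and 0, 0 and 0 FPKM in M7 and rose in L2 against L1 (log2 change 1.58, adjusted p = 2.8e-05). Component DN11974 held 3 GDSL unigenes, which are given after their values were seen. TRINITY_DN11974_c0_g1 was highest in L1, at 3.71, 5.77 and 5.40 FPKM, while TRINITY_DN11974_c0_g2 and TRINITY_DN11974_c0_g3 were highest in L2, at 1.87, 2.65 and 1.35 FPKM and 2.72, 3.93 and 2.09 FPKM. The fall of the first in L2 against L1 was lost without replicate 2 or 3 of L1, any replicate of L2 or replicate 2 of M7 (adjusted p up to 0.162), its fall in M7 against L1 without replicate 2 of L1 (adjusted p up to 0.0561), and the rise of the third in L2 against L1 without replicate 1 or 3 of L1, any replicate of L2 or any replicate of M7 (adjusted p up to 0.135). The 18 GDSL unigenes not named had highest stage means from 1.46 to 42.98 FPKM, and 10 of them were called in no comparison.

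**Figure D4:**
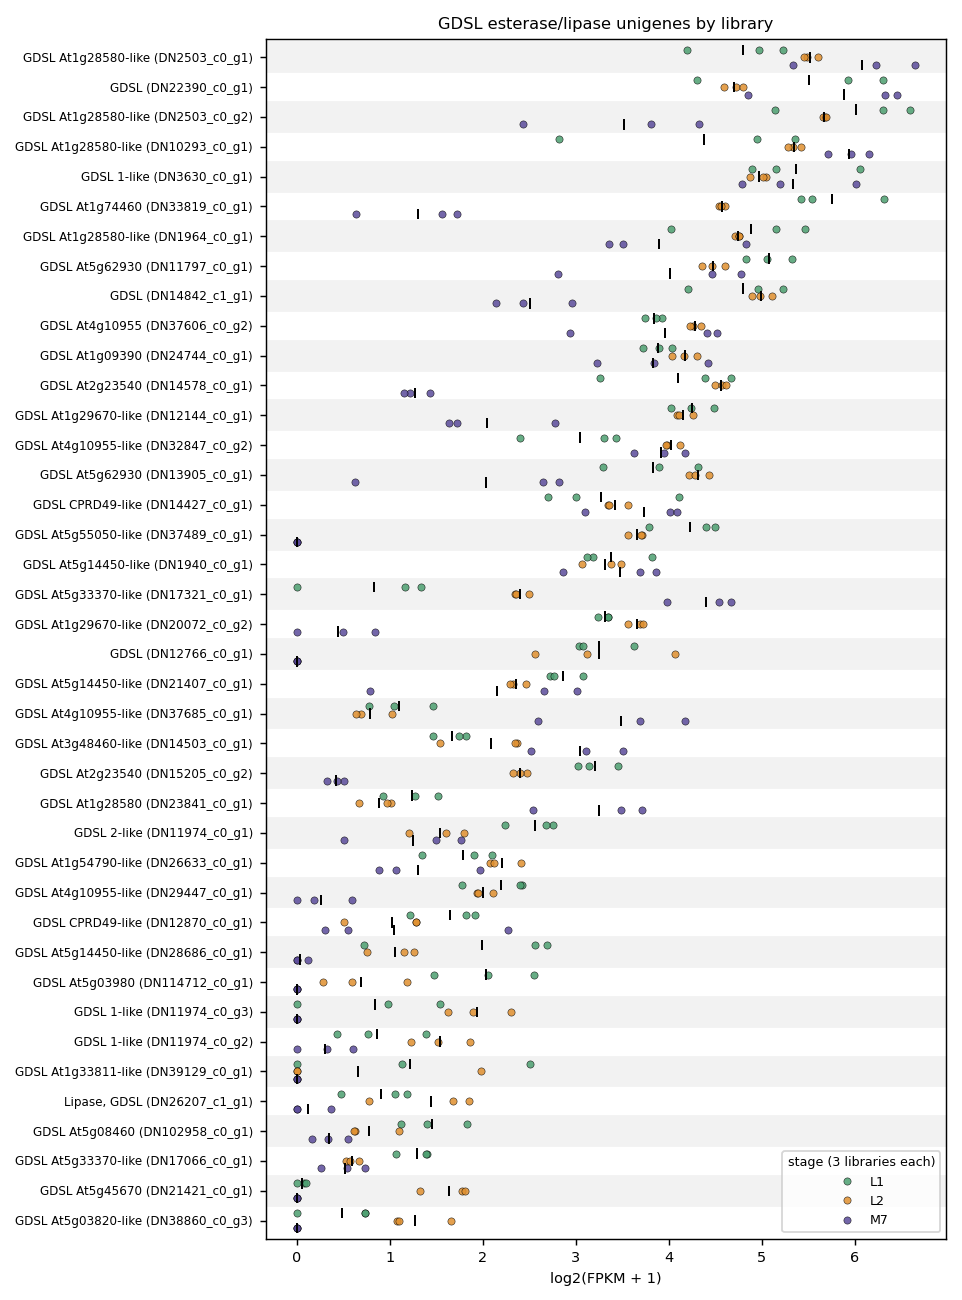
Level of the 40 GDSL unigenes in each library (horizontal axis, log2 of FPKM + 1), with 1 row per unigene in order of mean level. Points are the 3 libraries of L1, L2 and M7, from top to bottom in each row, and short vertical lines are their means. M7 points lie left of the seedling points in rows such as At1g74460 (0.56 to 2.29 FPKM in M7) and right of them in At5g33370-like (14.8 to 24.5 FPKM).

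The most abundant member was a lipid-transfer protein named DIR1 (TRINITY_DN16854_c0_g1), after an Arabidopsis protein of systemic acquired resistance. It had 126, 111 and 119 FPKM in the L1 libraries, 379, 364 and 404 FPKM in the L2 libraries and 747, 351 and 226 FPKM in the M7 libraries. The seedling stages did not overlap, and the M7 libraries spread widely with replicate 1 on top. It rose in L2 against L1 (log2 change 1.68 ± 0.38, limma adjusted p = 0.00716) and also in M7 against L1 (log2 change 1.71 ± 0.38, limma adjusted p = 0.00638), but not in M7 against L2 (log2 change 0.03 ± 0.38, limma adjusted p = 0.986). After median ratio rescaling, the rise in L2 was not called (adjusted p = 0.115). The 88 members summed to 1504, 1357 and 1256 FPKM in M7, or 756, 1005 and 1029 FPKM without both DIR1 unigenes. The other DIR1 unigene (TRINITY_DN16769_c0_g1), at 0.31 to 1.42 FPKM, passed no test.

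Of the 5 other LTPs, the 3 of component DN1551 were lower in M7. They may be alleles, copies or pieces of a gene, so their falls may not be separate observations. Of all tested unigenes, 35.1% fell in M7 against L1 and 52.6% against L2. TRINITY_DN1551_c0_g2, named At2g13820-like, had 16.99, 13.5 and 5.95 FPKM in the L1 libraries, 17.4, 20.7 and 19.5 FPKM in the L2 libraries and 0.69, 0.41 and 0.94 FPKM in the M7 libraries. It fell in M7 against L1 (log2 change -2.87 ± 0.35, limma adjusted p = 0.000242) and L2 (log2 change -3.60 ± 0.35, limma adjusted p = 4.12e-05), and L1 and L2 were not told apart (adjusted p = 0.141). TRINITY_DN1551_c0_g1 had 13.3, 9.73 and 1.84 FPKM in L1, 22.8, 21.03 and 23.9 FPKM in L2 and 1.62, 1 and 0.68 FPKM in M7, and it fell in M7 against L2 (log2 change -3.51 ± 0.55, limma adjusted p = 0.000673). Its rise in L2 against L1 (adjusted p = 0.0426) was lost without replicate 2 of L1, any replicate of L2 or replicate 2 or 3 of M7 (adjusted p up to 0.115), and its fall in M7 against L1 (adjusted p = 0.0225) without replicate 1 or 2 of L1 or replicate 2 or 3 of M7 (adjusted p up to 0.0809). TRINITY_DN1551_c1_g1 had 7.21, 6.87 and 4.74 FPKM in L1, 6.77, 9.59 and 7.44 FPKM in L2 and 0, 0 and 0.09 FPKM in M7 (log2 change -3.11, adjusted p = 6.25e-06, M7 against L2).

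The remaining LTPs spread widely within a stage. LTP1-like (TRINITY_DN15137_c0_g1) had 3.73, 2.87 and 6.74 FPKM in L1, 11.8, 12.6 and 10.8 FPKM in L2 and 49.3, 4.23 and 3.27 FPKM in M7, so replicate 1 of M7 alone was high. TRINITY_DN15499_c0_g1, named LTP-like 1, had 1.87, 15.99 and 20.6 FPKM in L1, 5.28, 5.61 and 14.7 FPKM in L2 and 31.5, 13.7 and 30.8 FPKM in M7. Neither was called in any comparison, with standard errors of 0.84 and 0.78 on the log2 scale. Over the 5 LTPs, the summed level was 43.1, 49 and 39.9 FPKM in L1, 64.02, 69.5 and 76.4 FPKM in L2, and 83.1, 19.4 and 35.8 FPKM in M7.

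**Figure D5:**
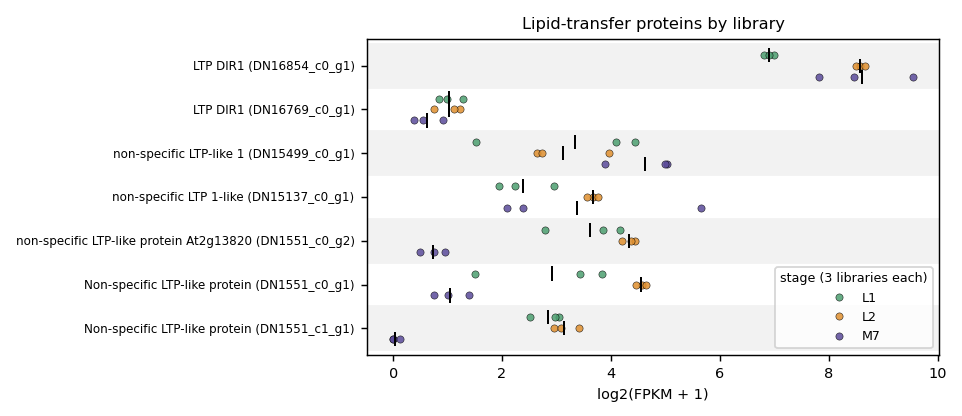
Level of the 7 lipid-transfer unigenes in each library (horizontal axis, log2 of FPKM + 1), with 1 row per unigene. Points are the 3 libraries of L1, L2 and M7, from top to bottom in each row, and short vertical lines are their means. The DN1551 rows drop in M7 to at most 1.62 FPKM, and the abundant DIR1 row lies right of L1 in both L2 and M7 (226 FPKM or more).

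Other genes were taken by description words for suberin, the Casparian strip, cutin, wax and lipid carriers, and 105 of them passed the same minimum. Of these, 28 were other lipid carriers, such as acyl-CoA-binding proteins, and 28 were taken by words for regulators. The regulator words also took scarecrow-like unigenes, so the counts are not of suberin or strip genes alone. In L2 against L1, 24 rose (22.9%, beside 26.1% of all tested unigenes) and 17 fell (16.2%, beside 14.8%). In M7, 11 rose against L1 (10.5%, beside 9.37%) and 55 fell (52.4%, beside 35.1%). Against L2, 9 rose (8.57%, beside 7.71%) and 75 fell (71.4%, beside 52.6%). Among them, 19 regulators and 10 other lipid carriers fell in M7 against L1, while 2 and 4 rose. Against L2, 25 regulators and 18 other lipid carriers fell, while 2 and 4 rose. The words omega-hydroxypalmitate O-feruloyl, fatty alcohol:caffeoyl or HXXXD took 8 unigenes. The first of these names is for enzymes that attach ferulic acid to suberin chains. All 8 fell in M7 against L2, and 7 did so against L1. The 8 summed to 95.2 to 102.06 FPKM in the L1 libraries, 127 to 132 FPKM in the L2 libraries and 7.08 to 14.7 FPKM in the M7 libraries. The most abundant (TRINITY_DN32133_c0_g1) had 46.4, 48.2 and 55.01 FPKM in L1, 58.6, 57.8 and 61.5 FPKM in L2 and 4.35, 6.76 and 9.10 FPKM in M7 (log2 change -3.01, adjusted p = 1.57e-05, M7 against L2). The next (TRINITY_DN2288_c0_g1) had 21.6, 24.1 and 12.9 FPKM in L1, 40.4, 39.4 and 43.9 FPKM in L2 and 1.84, 1.09 and 3.64 FPKM in M7 (log2 change -3.80, adjusted p = 2.48e-05, M7 against L2). All 5 ABC transporters of subfamily G in the list, which includes exporters of suberin and cutin in Arabidopsis, were lower in M7 against L2, and 3 were higher in L2 against L1. The ABCG6-like unigene (TRINITY_DN10376_c0_g1) had 9.65, 8.29 and 2.65 FPKM in L1, 19.7, 18.4 and 17.9 FPKM in L2 and 3.77, 3.44 and 5.39 FPKM in M7 (log2 change -1.93, adjusted p = 0.00301, M7 against L2).

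Of the 7 cytochromes P450 of families 86 and 94, 1 rose and 2 fell in M7 against L1. Against L2, 0 rose and 2 fell, with a median log2 fold change of 0.55. Of all tested unigenes, 35.1% fell against L1 and 52.6% against L2. The group held CYP86B1-like (TRINITY_DN2090_c0_g1), named after an enzyme that hydroxylates very long chains for suberin in Arabidopsis. It had 20.2, 21.9 and 16.7 FPKM in L1, 17.1, 16.1 and 16.9 FPKM in L2 and 0.87, 1.15 and 1.06 FPKM in M7. It fell in M7 against L1 (log2 change -3.34 ± 0.19, limma adjusted p = 6.42e-06). CYP94A2 (TRINITY_DN117242_c0_g1) had 22.02, 20.3 and 13.9 FPKM in L1, 5.78, 5.34 and 6.20 FPKM in L2 and 6.34, 29.8 and 6.47 FPKM in M7 and was not called in M7. Of 6 elongase partners, 1 rose and 3 fell in M7 against each seedling stage. Their summed level had means of 175 FPKM in L1, 194 FPKM in L2 and 169 FPKM in M7. Of 3 unigenes taken by cutin words, 1 rose and 2 fell against L1, and 0 rose and 2 fell against L2. They summed to means of 35.5, 55.0 and 86.4 FPKM in L1, L2 and M7. The MYB unigenes given next were chosen after their values were seen. MYB39 (TRINITY_DN24060_c1_g2), an activator of suberin genes in Arabidopsis, had 3.78, 4.35 and 3.26 FPKM in L1, 3.81, 4.03 and 4 FPKM in L2 and 0, 0.09 and 0 FPKM in M7 (log2 change -2.26, adjusted p = 9.29e-06, M7 against L2). MYB93-like (TRINITY_DN117039_c0_g1) had 6.08, 6.38 and 5.38 FPKM in L1, 7.09, 6.36 and 6.21 FPKM in L2 and 0.5, 0.22 and 0.22 FPKM in M7 (log2 change -2.53, adjusted p = 7.36e-06, M7 against L2), and MYB102-like (TRINITY_DN24060_c0_g1) 1.38, 1.67 and 0.9 FPKM in L1, 2.13, 3.10 and 3.60 FPKM in L2 and 0, 0.34 and 0.25 FPKM in M7 (log2 change -1.71, adjusted p = 0.000245, M7 against L2).

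Partners of the strip did not all follow the CASPs. The uclacyanin 1 unigene TRINITY_DN2019_c0_g3, of copper proteins that act at the Casparian strip in Arabidopsis, had 68.5, 69.03 and 61.01 FPKM in L1, 47.9, 57.4 and 55.1 FPKM in L2 and 258, 245 and 303 FPKM in M7 and was a DEG higher in M7 (log2 change 2.31, adjusted p = 8.47e-06, M7 against L2). Peroxidase 72 (TRINITY_DN3579_c0_g1), of a family that polymerizes lignin, was a DEG higher in L2, with 31.6, 29.01 and 22.6 FPKM in L1, 123, 123 and 137 FPKM in L2 and 11.9, 19.7 and 39.9 FPKM in M7 (log2 change 2.17, adjusted p = 0.00191, L2 against L1). The following were chosen after their values were seen. A second uclacyanin 1 (TRINITY_DN1259_c0_g1) was at 19.6, 22.9 and 24.8 FPKM in L2, against 112, 134 and 32.6 FPKM in L1, and was listed at 0 in M7. Peroxidase 64-like (TRINITY_DN1954_c0_g1), named after the strip peroxidase of Arabidopsis, had 6.02, 6.20 and 4.62 FPKM in L1, 5.43, 4.64 and 5.13 FPKM in L2 and 0 in M7. The receptor kinase GSO1 (TRINITY_DN17447_c0_g1), needed for an unbroken strip in Arabidopsis, had 60.5, 62 and 20.7 FPKM in L1, 40.04, 50.5 and 28.8 FPKM in L2 and 0.26, 2.98 and 1.91 FPKM in M7 (log2 change -4.02, adjusted p = 0.000304, M7 against L2). SHORT-ROOT-like (TRINITY_DN21155_c0_g1), which specifies the endodermis in Arabidopsis, had 10.8, 12.7 and 16.7 FPKM in L1, 7.49, 6.20 and 6.59 FPKM in L2 and 0, 0.72 and 0.04 FPKM in M7 (log2 change -2.67, adjusted p = 5.5e-05, M7 against L2). The CASP unigenes, themselves members here, and both unigenes named SCARECROW served as endodermis markers. They were low in M7, SCARECROW at 0.67 FPKM or less, against 0.58 to 2.38 FPKM in the seedlings. The full list of 24 for the endodermis also held scarecrow-like unigenes. Of the 24, 2 were higher and 16 lower in M7 against L1, and 2 were higher and 19 lower against L2. The xylem markers, a list of 13, summed to 78.01 to 97.3 FPKM in M7, against 112 to 123 FPKM in L1 and 118 to 128 FPKM in L2. Of the 13, 1 was higher and 7 were lower in M7 against L1, and 1 was higher and 8 were lower against L2. A laccase-17-like unigene (TRINITY_DN13486_c0_g1) held a large part of the xylem sum, with 47.1, 52.3 and 34.5 FPKM in M7, against 36.1, 37.4 and 49.1 FPKM in L1 and 41.9, 42.2 and 40.98 FPKM in L2. Of 6 phloem markers, 1 was higher and 4 were lower in M7 against L1, and 1 was higher and 3 were lower against L2. Beside these marker counts, 9.37% of all tested unigenes were higher and 35.1% lower in M7 against L1, and 7.71% and 52.6% against L2. Whether the share of any tissue in the sampled root had a part in the M7 values was not tested.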

How the data were processed

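Total RNA of wild-type roots (L1, L2 and M7, 3 biological replicates each) was sequenced as mRNA libraries. Per the labels and methods, the authors used FastQC for read quality and fastx_toolkit 0.0.14 for trimming, assembled unigenes de novo with Trinity, quantified them with RSEM and described them by Blastx against NR. The deposited values are FPKM, although TPM is named in 1 place. The table held 65535 unigenes with no genome coordinates, and the stage means the authors deposited were not used. FPKM keeps no read number, so the depth behind a value is unknown.

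From the deposited FPKM, log2(FPKM + 1) was computed for unigenes at 1 FPKM or more in at least 3 of 9 libraries, so fold changes of low unigenes are understated. Stages were compared with limma 3.58.1 in R 4.3.3, with a mean per stage, all libraries in 1 fit, a trend in the variance and Benjamini-Hochberg adjustment over 34925 unigenes. The script was tested on simulated data. Fragments and near-identical copies can divide reads. Alternatives were other pseudocounts (0.1 and 5 FPKM), filters, scalings, a replicate block and left-out libraries. The members and gene lists were chosen with earlier results of these data known. Members named were every CASP, FAR and GPAT member with a stage mean of at least 10 FPKM and, in GDSL, LTP and KCS, the 3 largest non-overlapping rises and falls per comparison over 10 FPKM, the 3 highest means and the 2 highest not called. Of other pathway genes, the 2 highest per word group could be named. Some members are counted in their family but not reported singly here.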

Additional observations from a re-analysis of the deposited data

How the results depend on the processing

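After median ratio rescaling, 8 members rose in L2 against L1, 5 DEGs rose and 3 fell in M7 against L1. With it, 22 members rose in M7 against L2, 6 as DEGs, and 3 DEGs fell. After quantile normalization, 8 rose and 20 fell in L2 against L1, 27 rose and 22 fell in M7 against L1 (2 DEGs lower), and 30 rose and 22 fell in M7 against L2 (4 DEGs higher, 3 lower). With a pseudocount of 0.1 FPKM, 8 rose in L2 against L1, and with 5 FPKM, 3 DEGs fell in M7 against L2. At a minimum of 5 FPKM, 4 rose and 4 fell in L2 against L1, 24 fell in M7 against L1 and 27 fell in M7 against L2, with fewer unigenes tested. With no minimum FPKM for DEGs, 2 rose in L2 against L1, 6 rose and 19 fell in M7 against L1, and 5 rose and 23 fell in M7 against L2. Without both libraries that stood apart, an alternative chosen after seeing the data, 19 members rose in M7 against L2, 2 as DEGs. Leaving out each library in turn gave 9 to 15 higher and 7 to 13 lower in L2 against L1, 12 to 17 and 30 to 43 for M7 over L1, and 9 to 13 and 39 to 43 for M7 over L2. DEGs numbered 1 to 1 and 0 to 0, 1 to 3 and 5 to 6, and 1 to 2 and 5 to 6 in the same order. The fallers in L2 against L1 numbered 7 without replicate 1 of L2 and 8 without its replicate 3. DEGs higher in M7 numbered 1 against L1 without replicate 3 of L1 or replicate 2 of M7, and 2 against L2 without replicate 1 of M7. Beyond these constructions, the cause was not tested.

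The sign of the log2 fold change of named members turned in 17 cases, counting only those called in the main fit or under the other setting. In M7 against L1 after quantile normalization it was 0.16 in TRINITY_DN383_c0_g2, 0.64 in TRINITY_DN2502_c0_g1, 0.71 in TRINITY_DN14465_c0_g3, 0.95 in TRINITY_DN106291_c0_g1, 0.87 in TRINITY_DN1902_c0_g3 and 0.72 in TRINITY_DN16769_c0_g1. In M7 against L2 after quantile normalization it was 1.41 in TRINITY_DN383_c0_g2, 0.77 in TRINITY_DN32847_c0_g2, 1.25 in TRINITY_DN11974_c0_g1, 0.19 in TRINITY_DN11974_c0_g2, 0.13 in TRINITY_DN19365_c0_g1, 0.58 in TRINITY_DN14465_c0_g3, 0.80 in TRINITY_DN106291_c0_g1, 0.00059 in TRINITY_DN18147_c0_g1 and 1.17 in TRINITY_DN16769_c0_g1. After median ratio rescaling in M7 against L2 it was 0.72 in TRINITY_DN32847_c0_g2 and 0.076 in TRINITY_DN14465_c0_g2. TRINITY_DN18147_c0_g1 was listed at 0 in every M7 library, so its 0.00059 came from the quantile normalization and is not a fold of measured levels. With the replicate block, 11 members rose and 9 fell in L2 against L1, 13 and 36 for M7 over L1, and 10 and 41 for M7 over L2. Same-numbered libraries did not deviate together (correlations from -0.05 to 0.05). With 3 libraries per stage, these values cannot tell whether such libraries share more than a number, and the labels name nothing shared.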

Other observations

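Among matches left out by species, 19 of 26 passed the minimum level, and 16 of these 19 (84.2%) were under 0.1 FPKM in every M7 library. A lipid-transfer unigene matching Quercus suber (TRINITY_DN1330_c0_g1) had 48.9, 39.9 and 10.6 FPKM in L1, 92.6, 88.2 and 86.8 FPKM in L2 and 6.11, 5.85 and 6.67 FPKM in M7. An LPAT unigene matching the same species (TRINITY_DN2159_c0_g1), of the component that holds the member TRINITY_DN2159_c0_g2, had 62.9, 61.7 and 30.3 FPKM in L1, 65.3, 60.2 and 67.8 FPKM in L2 and 42.8, 53.1 and 67.4 FPKM in M7. A DIR1 unigene matching Spinacia (TRINITY_DN15461_c0_g1) had 14.4, 15.7 and 39.3 FPKM in L1, 8.69, 10.02 and 8.86 FPKM in L2 and 0, 0 and 0 FPKM in M7.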
